A study of Canis lupus familiaris with 22 samples.

Results

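The 150 genes described here were higher in the macular than in the peripheral RPE/choroid of each of 4 dogs and did not differ by a set amount in one direction in the neural retina of all 4. For each dog, the regional difference d was the log2 ratio of macular to peripheral counts scaled to one common library total (CPM), with 0.5 CPM added to both. A gene was up when all 4 values of d were at least 0.2 and down when all 4 were at most -0.2. Of 30951 gene identifiers, 1755 were up in RPE/choroid, 1450 of these were neither up nor down in retina, and 1176 of these averaged at least 2 CPM over the 8 RPE/choroid libraries. The 150 with the largest smallest value of d form the group. Since macular and peripheral values in both tissues chose these genes, those values are given as a description.

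The retinal pigment epithelium (RPE) is a single cell layer behind the photoreceptors, which recycles visual pigment, takes up shed outer segments and moves water and ions out of the retina. The choroid behind it is a bed of vessels in a stroma of fibroblasts, melanocytes, nerves and immune cells, and in dogs part of it forms the reflective tapetum lucidum. The macula is the central region used for acute vision, where photoreceptors are packed most densely.

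Libraries came from 7 mixed-breed dogs. Dogs 18-2 and 18-6 (males, left eyes) and dogs 18-7 and 18-9 (females, right eyes), aged 2 to 3 years (18-2 and 18-9) or 3 to 5 years (18-6 and 18-7), each gave 4 libraries, 1 from the macula and 1 from the periphery of each tissue. In a second set, dog 1 (female, 3 to 5 years), dog 2 (male, 2 to 3 years) and dog 3 (male, 3 to 4 years) each gave macular RPE/choroid from the right eye with the retina left on and from the left eye with the retina off. Sex and eye side cannot be told apart in the first set, nor sampling method and eye side in the second. No group carried a treatment or a named genotype. Libraries held at least 2690847 counts, in dog 18-6's peripheral RPE/choroid, and at most 7845325, in dog 3's retina-off eye. The gene with the most counts held between 0.0933% and 0.153% of a library. The retina-off library of dog 3, at 0.0966%, lay below the other 5 of its set.

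The files give Ensembl identifiers without names, and 0 of the 150 matched the reference table of gene names. Members are therefore called by their rank in the rule, with at most 2 identifiers per direction and comparison. Marker lists for RPE, endothelium, stroma, muscle, immune cells and photoreceptors need gene names and were not applied, so the labelled tissues were checked only by how far the libraries differed from each other. In bulk tissue, more cells of a type and more RNA per cell cannot be told apart.

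The members took up a small share of the RNA. In the first set of dogs it was largest in macular RPE/choroid, which the rule favours. Their summed level was 6684, 7051, 5243 and 6557 CPM in macular RPE/choroid of dogs 18-2, 18-6, 18-7 and 18-9. In the peripheral RPE/choroid of these dogs it was 2138, 1694, 1848 and 1829 CPM. The groups did not overlap, and dog 18-7 had the lowest macular sum. In retina the sum ran from 4140 to 4439 CPM in macular and from 3846 to 4296 CPM in peripheral libraries. Those ranges overlapped.

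**Figure D1:**
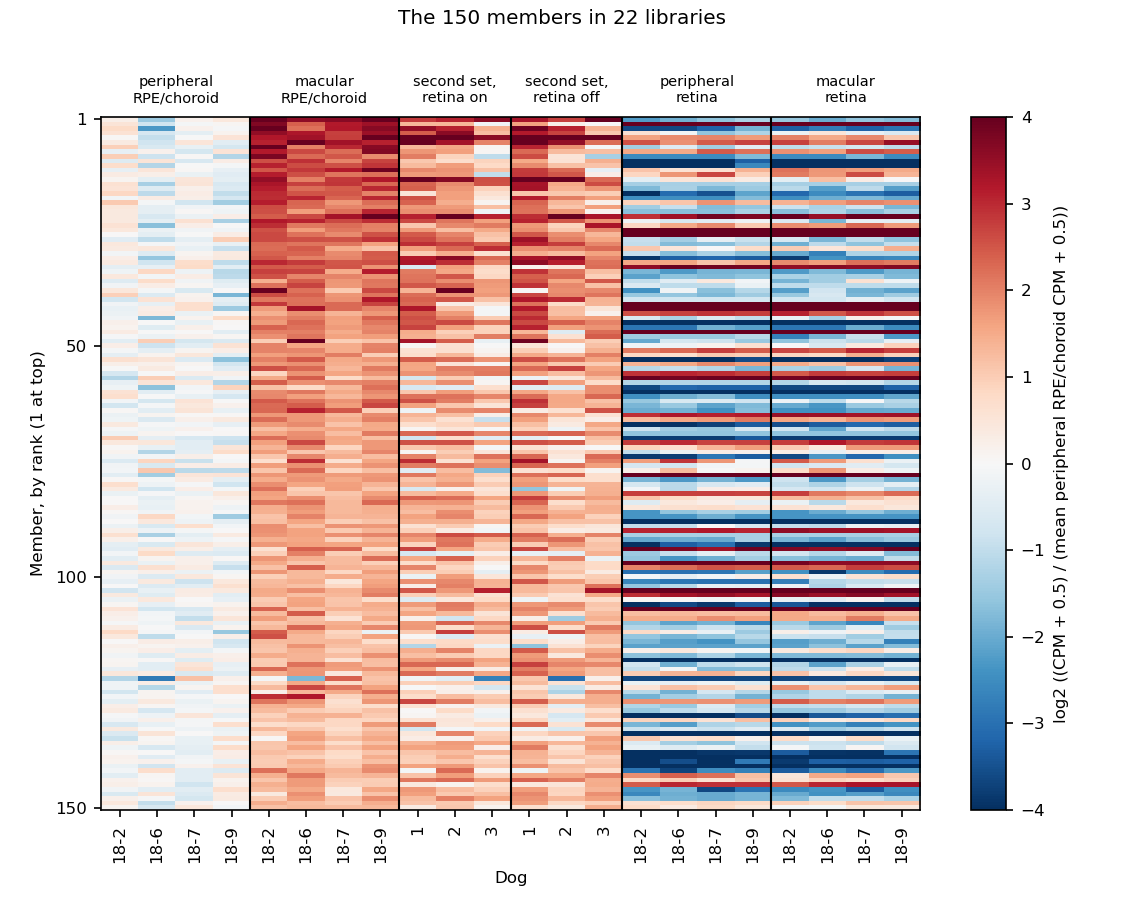
Each row is 1 of the 150 members by rank, each column 1 of the 22 libraries, and colour gives the log2 ratio of its CPM + 0.5 to the mean peripheral RPE/choroid CPM + 0.5, drawn up to 4 in both directions. Macular RPE/choroid columns are red in nearly every row in the first set of dogs and in most rows in the second, while retina columns hold both strongly red and strongly blue rows.

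The mean d of the members over 4 dogs ran from 1.03 to 4.04, with quartiles of 1.40 and 2.25 and a median of 1.70, beside a median of 0.05 over the 14069 genes of at least 2 CPM. It was at least 2 for 52 members and at least 3 for 11. For 138 members, the lowest of the 4 macular RPE/choroid libraries lay above the highest of the 4 peripheral ones, against 10.3% of all genes of at least 2 CPM. Close to the limit, the members ranked 146 to 150 had a smallest d of 0.827 to 0.824, and the next 5 genes had 0.822 to 0.811. The limit cuts a continuous series of values.

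The dogs contributed unevenly. The median d of the members was 1.67 in dog 18-2, 2.03 in dog 18-6, 1.48 in dog 18-7 and 1.73 in dog 18-9. Dog 18-6 gave the largest d for 70 members and dog 18-7 the smallest for 73. All genes of at least 2 CPM also had their highest median d in dog 18-6, at 0.15, against 0.01, 0.01 and 0.04 in dogs 18-2, 18-7 and 18-9. The peripheral RPE/choroid library of dog 18-6 was the shallowest, so that 3 counts there stand for 1.11 CPM. In it, 31 members had 3 counts or fewer, beside 7 to 11 in the other peripheral RPE/choroid libraries. Their values of d in dog 18-6 are correspondingly imprecise.

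ENSCAFG00000000667, at rank 1, had 196, 147, 154 and 252 CPM in macular RPE/choroid of dogs 18-2, 18-6, 18-7 and 18-9. In the periphery of the same eyes it had 14.1, 4.09, 13.6 and 15.995 CPM. The lowest macular value was thus well above the highest peripheral one. Its log2 fold change was 3.91 ± 0.20 (SE, edgeR, n = 4 dogs). In retina it stayed between 2.14 and 4.63 CPM in all 8 libraries, with no separation of the regions.

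ENSCAFG00000003510, at rank 2, had the opposite tissue pattern. It had 35.7, 14.0, 24.8 and 29.1 CPM in macular RPE/choroid and 3.46, 1.11, 2.15 and 2.44 CPM in the periphery, in the same order of dogs. The log2 fold change was 3.46 ± 0.15 (SE, edgeR, n = 4 dogs), and d differed little between dogs, from 3.17 to 3.33. In retina it had 63.7 to 106 CPM, above every RPE/choroid library. Its retinal d was positive in all 4 dogs, at 0.55, 0.27, 0.08 and 0.19, and under 0.2 in 2 of them.

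Further down the ranking the same spread of levels recurred, shown by 4 members picked after their values were seen. The member at rank 3 had 27.8 to 111 CPM in macular and 0.743 to 9.98 CPM in peripheral RPE/choroid, with a mean of 0.294 CPM in retina. The member at rank 5 had 11.0 to 40.3 CPM in macular, 0.372 to 1.98 CPM in peripheral RPE/choroid and a mean of 5.13 CPM in retina. The member at rank 17 had 203 to 406 CPM in macular and 24.5 to 91.1 CPM in peripheral RPE/choroid. The member at rank 25 had 9.85 to 18.3 CPM against 2.23 to 3.87 CPM, with a mean of 83.8 CPM in retina. None of these 4 overlapped between the regions. The member with the highest CPM in RPE/choroid, a scale that also depends on transcript length, stood at rank 60. It had 358 to 538 CPM in the macula and 92.9 to 188 CPM in the periphery, and 1.29 to 6.45 CPM in retina.

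The fit over all genes gave 8.19% of 14352 genes as higher in macular RPE/choroid (edgeR quasi-likelihood test, adjusted p under 0.05, n = 4 dogs). All 150 members were tested and called, with log2 fold changes from 0.99 to 5.52 and a median of 1.84. Since the contrast chose the members, this count supports nothing. It was 102 without the dog block, when 2.04% of all genes were called. With 1 dog left out, it was 35 without dog 18-2, 96 without dog 18-6 and 93 without dog 18-9, with 0.433%, 1.84% and 1.35% of all genes called higher.

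**Figure D2:**
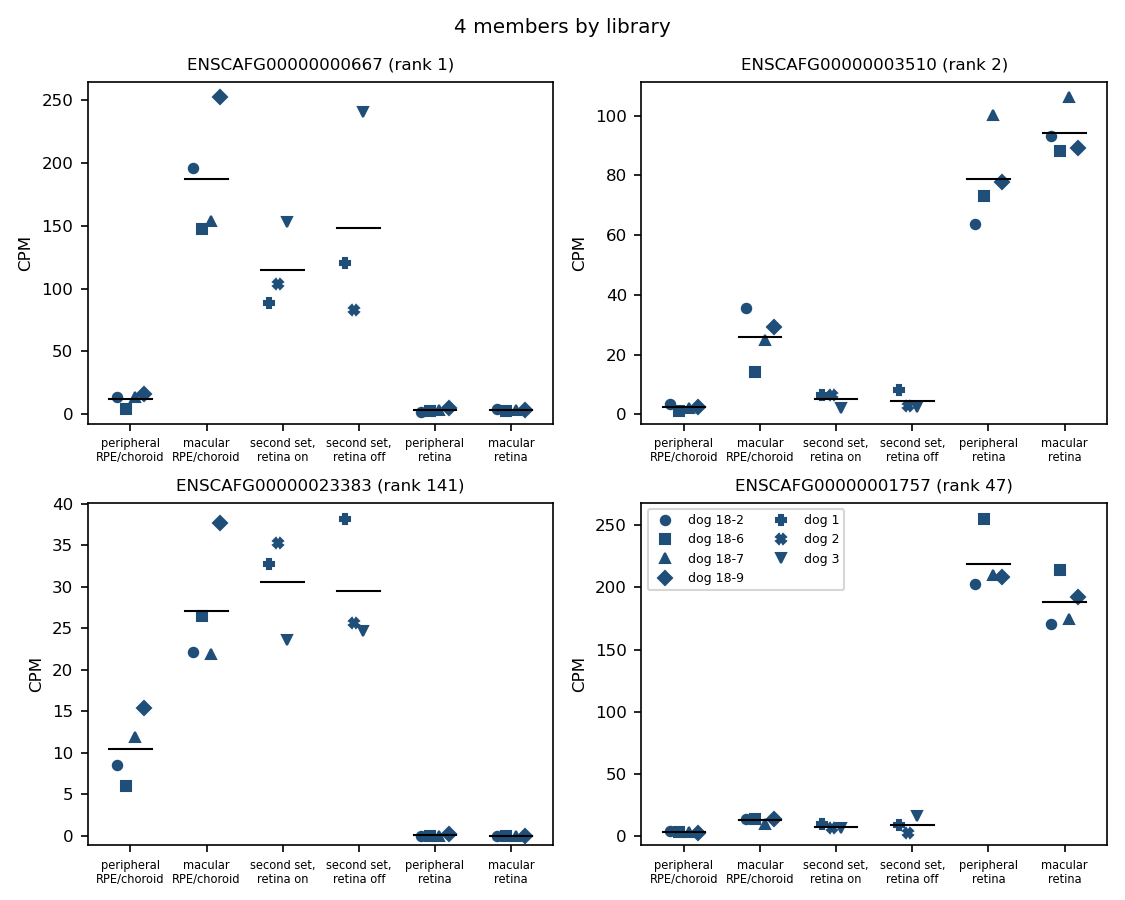
CPM (linear axis) of 4 members in each library, by group, with dogs as symbols and bars for the group mean. ENSCAFG00000000667 and ENSCAFG00000023383 are near 0 in retina, while ENSCAFG00000003510 and ENSCAFG00000001757 are highest there, and in all 4 the macular RPE/choroid of the first set lies above the periphery.

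In retina, the members did not all move in one direction between the regions. Mean retinal d ran from -0.85 to 1.41, with a median of 0.03. It was of one sign in all 4 dogs for 25 members (positive) and 11 members (negative), and mixed or 0 for 114. Only 86 members had enough counts in retina to be tested. Of these, 8 were higher and 4 lower in the macular retina (edgeR adjusted p under 0.05, n = 4 dogs), where 12.3% and 6.63% of all 14392 genes were called, and 10.9% and 6.67% of those of at least 2 CPM in RPE/choroid. The rule had kept out genes with a retinal d of at least 0.2, or at most -0.2, in all 4 dogs, so nothing is read from these shares. The counts were 5 and 3 with DESeq2 (6.73% and 2.80% of all genes) and 2 and 1 without the dog block (6.68% and 1.82%). Without dog 18-2 they were 14 and 12 (13.1% and 13.0%), and without dog 18-6 they were 7 and 1 (8.67% and 3.13%). Without dog 18-7 they were 5 and 2 (7.83% and 2.76%), and without dog 18-9 they were 3 and 5 (7.88% and 4.09%). The shares of all genes thus moved between these fits too.

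The rule was also applied to 3 dogs at a time, and the 150 genes it then chose were read in RPE/choroid of the remaining dog. In dog 18-2, 108 of the genes chosen in the other dogs had a d of at least 1 (72.0%), against 4.29% of all genes of at least 2 CPM. In dog 18-6 this held for 136 (90.7%, against 8.24%). It held for 97 in dog 18-7 (64.7%, against 2.29%) and for 121 in dog 18-9 (80.7%, against 3.46%). The median d in the remaining dog was 1.45, 1.94, 1.25 and 1.63 in the same order. A fall of at least 0.2 was seen for 4, 1, 2 and 2 of the chosen genes. The regional rise of genes chosen in 3 dogs was thus present in the fourth for most of them, and dog 18-7 again had the smallest values. Between 107 (without dog 18-7) and 134 (without dog 18-6) of these genes were among the 150 members, which had to be up in the remaining dog too. The shares therefore describe the choice in 3 dogs and give no support for the members. Counts and shares are descriptive here, without a test.

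**Figure D3:**
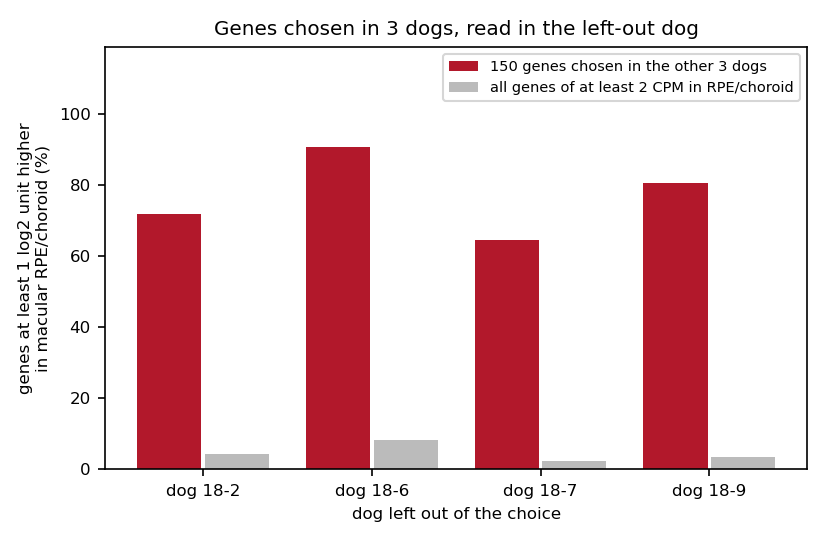
Share of genes, in percent, with d of at least 1 in RPE/choroid of a dog left out of the choice, for the 150 genes chosen in the other 3 dogs and for all genes of at least 2 CPM in RPE/choroid. The chosen genes lie at 64.7% to 90.7% and all genes at 2.29% to 8.24%.

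The second set of dogs gave 6 macular RPE/choroid libraries that the rule had not used. The summed level of the members was 5355, 5895 and 4068 CPM with the retina on and 6771, 4653 and 5207 CPM with the retina off, in dogs 1, 2 and 3. Every one of these sums was above the highest peripheral sum of the first set, 2138 CPM. Of the 6, 3 lay within the range of the first set's macular libraries, and 3 lay below it. Against the mean peripheral level, the median log2 ratio of the members ran from 0.92 (retina on, dog 3) to 1.81 (retina off, dog 1), beside -0.02 to 0.11 for all genes of at least 2 CPM. In the first set's macular libraries it was 1.47 to 1.85.

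Gene by gene, 85 of 150 members (56.7%) had all 6 libraries above all 4 peripheral ones, against 12.9% of all genes of at least 2 CPM. No member had all 6 below, against 6.11% of all genes. For 144 members (96.0%) the median of the 6 libraries was above the mean peripheral level, against 52.1% of all genes. That median lay within the first set's macular range for 60 members, below it for 67 and above it for 23. Dog and set cannot be told apart here, and the peripheral libraries had been used by the rule, which favours genes that are low in them. Without the retina-off library of dog 3, which stood apart from its set, 87 members had all 5 libraries above the peripheral ones, and the share of all genes was 21.9%.

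The rank-1 member ENSCAFG00000000667 had 88.6, 104 and 153 CPM with the retina on and 121, 82.7 and 240 CPM with the retina off, all far above its 4 peripheral values. The rank-2 member ENSCAFG00000003510 did not repeat its macular level. It had 6.56, 6.52 and 2.06 CPM with the retina on and 8.03, 2.78 and 2.29 CPM with the retina off, where the first set's macular libraries had at least 14.0 CPM and the peripheral ones at most 3.46 CPM. Of the 50 members of highest rank, 32 had all 6 libraries above the peripheral ones, and of the next 50 and the last 50, 26 and 27 did. For 6 of the 150 members the second-set median was below the mean peripheral level, with log2 ratios of -0.44 to -0.07. They stood at ranks 59, 70, 95, 113, 122 and 133. All 6 of them were higher in RPE/choroid than in retina, as were 65.3% of all members and 42.1% of all genes of at least 2 CPM.

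**Figure D4:**
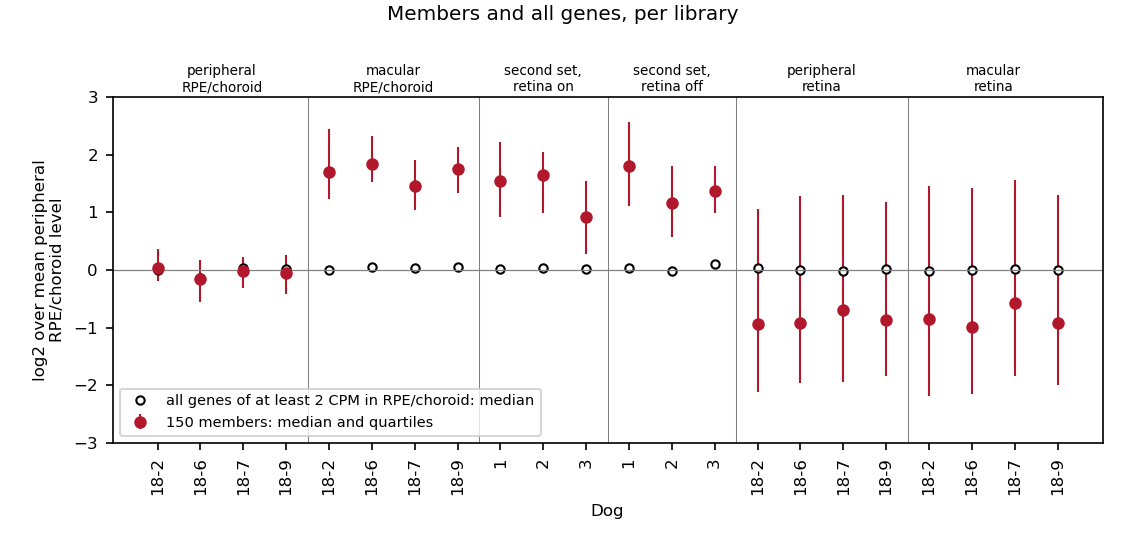
Median and quartiles over the 150 members (filled) and median over all genes of at least 2 CPM in RPE/choroid (open) of the log2 ratio to the mean peripheral RPE/choroid level, for each of the 22 libraries. All 10 macular RPE/choroid libraries have a member median of 0.92 or more, and all 8 retina libraries one below 0, with wide quartiles.

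Whether the members belong to the RPE/choroid or also to the retina was asked with the tissue contrast, averaged over both regions of the 4 dogs. This contrast is not independent of the rule, since it averages the macular RPE/choroid libraries in which members had to be high. Of the members, 38 averaged under 2 CPM in peripheral RPE/choroid and reached the minimum only through those macular libraries. The counts are therefore a description. The fit used 16 libraries of 4 dogs, with dog as a block, and counted both regions of a tissue in the same dog as separate libraries. Deviations of such libraries from their group means were correlated, so SE and p of this contrast may be too small. Of 150 members, 98 were higher in RPE/choroid and 32 higher in retina, and 20 passed the threshold in neither direction (edgeR adjusted p under 0.05, 16 libraries of 4 dogs). Among all 15577 genes tested, 38.7% were higher in RPE/choroid and 40.7% in retina. Among genes of at least 2 CPM in RPE/choroid these shares were 42.1% and 36.5%, beside 65.3% and 21.3% of the members. A difference of at least 4-fold was called for 76 members toward RPE/choroid (13.1% of all genes, 14.1% of those of at least 2 CPM) and for 19 toward retina (10.9% and 5.13%). The median log2 fold change of RPE/choroid over retina was 2.05 for the members and 0.04 for all genes of at least 2 CPM.

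The rule asked for a macular rise in RPE/choroid and for none in retina. It thereby favours a tissue contrast further toward RPE/choroid in the macula than in the periphery, so the counts by region are a description. In the macula, 104 were higher in RPE/choroid and 23 in retina, of 149 tested (31.6% and 31.4% of all genes and 34.1% and 27.2% of those of at least 2 CPM in RPE/choroid, edgeR adjusted p under 0.05, n = 4 dogs). In the periphery, 52 were higher in RPE/choroid and 45 in retina, of 114 tested (33.1% and 32.8% of all genes, 35.4% and 28.9% of those of at least 2 CPM in RPE/choroid), and 36 had too few counts for the test. The median log2 fold change was 2.98 over the 149 members tested in the macula and 0.35 over the 114 tested in the periphery. These medians cover different sets of members, so their difference is not a shift of the same genes. The 20 members called in neither direction on average had a median of 0.72 in the macula. Only 16 of them had a fit in the periphery, with a median of -1.08, and for all 16 the sign turned between the regions. A turn is likely in genes chosen for a macular rise whose average tissue difference is near 0, so nothing is read from it.

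The members with the largest differences toward RPE/choroid were nearly absent from retina. ENSCAFG00000023383, at rank 141, had 22.2, 26.5, 21.95 and 37.8 CPM in macular and 8.56, 5.95, 11.9 and 15.4 CPM in peripheral RPE/choroid of dogs 18-2, 18-6, 18-7 and 18-9. Only 1 count was found in 8 retina libraries, beside 919 in the 8 of RPE/choroid, a pooled ratio of 939 (exact binomial 95% interval 168 to 37148). In the second set it stayed at 23.6 to 38.2 CPM, above every peripheral value. ENSCAFG00000049976, at rank 122, had no count in retina and 503 in RPE/choroid, so that it was at least 171-fold higher there (3 counts over the pooled retina libraries as the floor). Its level varied widely between dogs, with 5.47, 1.31, 31.5 and 13.3 CPM in macular and 2.24, 0.372, 13.6 and 6.70 CPM in peripheral RPE/choroid. These groups overlapped, and the regional difference appeared only within dogs. Of the 150 members, 4 had no count in any retina library and 54 averaged under 1 CPM there.

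Toward retina, the largest differences were those of ENSCAFG00000001757 and ENSCAFG00000013945. ENSCAFG00000001757, at rank 47, had 171 to 255 CPM in the 8 retina libraries. It had 13.5, 13.8, 9.39 and 13.3 CPM in macular and 3.87, 2.97, 3.02 and 2.13 CPM in peripheral RPE/choroid. The log2 fold change of RPE/choroid over retina was -4.97 ± 0.10 (SE, edgeR adjusted p = 1.12e-12, 16 libraries of 4 dogs). Its regions did not overlap in RPE/choroid, and in retina its d was below 0 in all 4 dogs, at -0.25, -0.25, -0.27 and -0.11. It was among the 4 members called lower in macular retina (log2 fold change -0.219 ± 0.045, SE, edgeR adjusted p = 0.0115, n = 4 dogs). ENSCAFG00000013945, at rank 103, had 58.0 to 77.6 CPM in retina, 3.47 to 5.11 CPM in macular and 0.408 to 1.52 CPM in peripheral RPE/choroid. Its tissue log2 fold change was -4.84 ± 0.14 (SE, edgeR adjusted p = 1.25e-11, 16 libraries of 4 dogs).

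**Figure D5:**
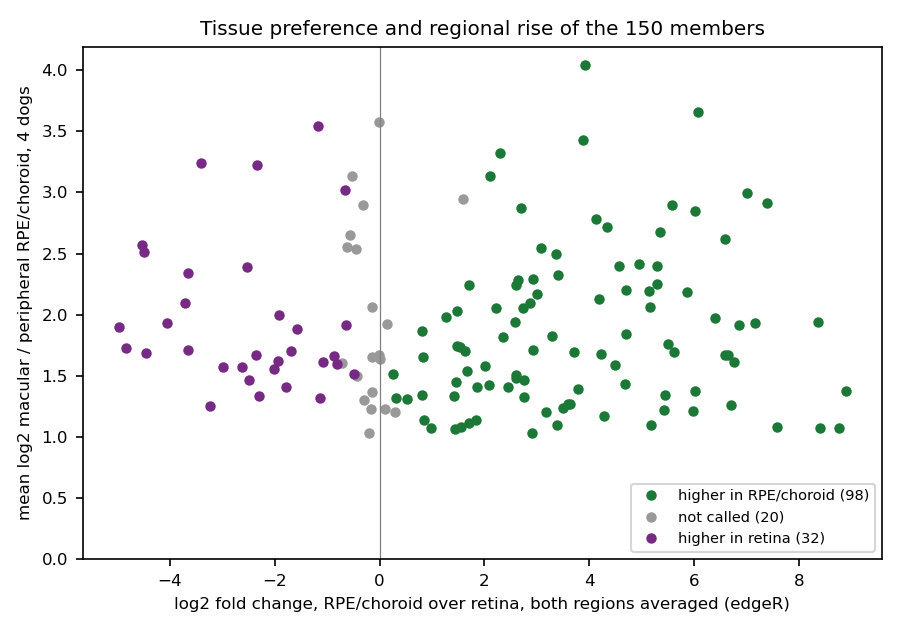
Each point is 1 of the 150 members, with the log2 fold change of RPE/choroid over retina (edgeR, both regions averaged) on the x axis and the mean log2 ratio of macular to peripheral RPE/choroid over 4 dogs on the y axis. The 98 members higher in RPE/choroid, the 32 higher in retina and the 20 in neither class span regional rises of 1.03 to 4.04, 1.25 to 3.54 and 1.03 to 3.58.

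The rule set the size of the regional rise in these classes, which were not tested against each other. Median mean d in RPE/choroid was 1.71 for the 98 members higher in RPE/choroid, 1.70 for the 32 higher in retina and 1.66 for the other 20. Median levels in macular RPE/choroid were 21.1, 19.5 and 16.8 CPM, and in retina 0.858, 66.3 and 8.30 CPM. Retinal genes were also measured in the same libraries. A list of the 200 genes with the largest difference toward retina, members left out and chosen from the same libraries, summed to 9130 to 12007 CPM in retina. In RPE/choroid it summed to 35.2 to 57.3 CPM in macular and 32.8 to 60.3 CPM in peripheral libraries, and the groups overlapped. Its ratio of macula to periphery was 1.75, 0.971, 0.584 and 0.901 in dogs 18-2, 18-6, 18-7 and 18-9. The summed level of the 32 members higher in retina had ratios of 4.38, 4.45, 3.11 and 4.01 in the same dogs. The corresponding list of 200 genes toward RPE/choroid had ratios of 1.07, 1.27, 1.07 and 1.16. The part of either list in the regional rise was not tested.

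The second set also allowed a comparison of retina left on with retina off in fellow eyes. Of 143 members tested, 0 were called (edgeR adjusted p under 0.05, n = 3 dogs), as were 0 of all 14076 genes (0%), and DESeq2 called 0 as well. Without dog 2, edgeR called 83 of all genes (0.58%) and still 0 members. An unadjusted p under 0.05 was found for 3 members and for 84 of all genes (edgeR). The median log2 fold change of retina on over off was -0.17 for the members and 0.00 for all genes. The smallest p belonged to ENSCAFG00000006959, at rank 13, with 7.03, 7.25 and 0.687 CPM with the retina on and 16.1, 12.5 and 2.29 CPM with it off in dogs 1, 2 and 3. Its log2 fold change was -1.15 ± 0.36 (SE, edgeR adjusted p = 0.99987). ENSCAFG00000014928, at rank 63, followed with 16.6, 11.4 and 7.55 CPM with the retina on and 36.9, 15.6 and 14.0 CPM with it off, a log2 fold change of -0.83 ± 0.28 (SE, edgeR adjusted p = 0.99987). Both were lower with the retina on in every dog, but the on and off groups overlapped.

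Within each pair of eyes most members differed in one direction, which was not the same in all dogs. All genes of at least 2 CPM leaned the same way as the members in each dog, but less. In dog 1, 128 of 150 members were lower with the retina on, with a median log2 difference of -0.38 against -0.03 for all genes of at least 2 CPM. There 14.7% of members and 44.5% of all these genes were higher with the retina on. In dog 3, 115 members were lower, with a median of -0.43 against -0.08, and 23.3% of members and 44.7% of all genes were higher. In dog 2 the direction was the reverse, with 117 members higher with the retina on (78.0%, against 57.9% of all genes) and a median of 0.36 against 0.07. The 3 tissue classes shared these directions. In dog 1, 88 of 98 members higher in RPE/choroid, 22 of 32 higher in retina and 18 of the other 20 were lower with the retina on. In dog 2, 79 of 98, 24 of 32 and 14 of 20 were higher with the retina on. The 200-gene retina list summed to 440, 23.2 and 36.9 CPM with the retina on and to 90.1, 79.3 and 24.9 CPM with it off in dogs 1, 2 and 3. It was thus higher with the retina on in dogs 1 and 3 and lower in dog 2, the reverse of the members in each dog. Its part in the result was not tested. Between fellow eyes of 1 dog, the summed level of the members differed by 1.26-fold to 1.28-fold, and between macula and periphery in the first set by 2.84-fold to 4.16-fold. The rule chose the members by that regional difference, so its size is no measure for the difference between fellow eyes.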

How the data were processed

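Total RNA from 22 samples of canine retina and RPE/choroid was sequenced from directional libraries, per the labels' protocols. Named in the submitters' processing notes are featureCounts 2.0.0, HISAT2 2.1.0, SAMtools, Trimmomatic 0.39 and FastQC 0.11.8. The authors deposited raw counts per gene. Not given in the sources used here: genome build, annotation, strand setting and handling of duplicates. CPM were computed from these deposited counts on library totals. Genes were tested with edgeR 4.0.16 in R 4.3.3 (quasi-likelihood test, TMM normalization, low-count filter by group, dog as a block, Benjamini-Hochberg adjustment over all genes tested, adjusted p under 0.05), and the procedure was tested on simulated data. The SE is the log2 fold change divided by the square root of F. Same-numbered samples come from the same dog. Their deviations from the group means correlated at 0.44 to 0.61 in RPE/choroid, 0.38 to 0.51 in retina and -0.05 to 0.65 in the second set.

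The members and gene lists were chosen with earlier results of these data known. Identifiers were named for the 2 highest ranks, the 2 largest tissue differences in each direction and the 2 smallest p-values of retina on against off. Other members are given by rank. No gene names matched, so planned pathway and cell type lists were not used. Intervals and floors (3 counts) cover counting error only. Alternatives were DESeq2 1.42.0, other size factors, no low-count filter, no dog block, other settings of the rule and leaving out each dog.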

Additional observations from a re-analysis of the deposited data

Results flagged for a closer look

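In 5 of 40 groups of 4 libraries, 1 library lay far from the other 3 relative to the range of the group. Chance alone marks about 1 in 20 groups of normally distributed values. The groups here shared libraries, and that rate does not apply to those with counts of only 0 or 1. Groups with only 0 counts could not be marked. In macular RPE/choroid, dog 18-7 had the lowest median member level, 16.1 CPM against 21.6 to 22.4 CPM in the other dogs. ENSCAFG00000001757 was also lowest there in dog 18-7, at 9.39 CPM against 13.3 to 13.8 CPM. In peripheral retina, the median member level was lowest in dog 18-2, at 2.14 CPM. ENSCAFG00000001757 was highest in the peripheral retina of dog 18-6, at 255 CPM. ENSCAFG00000023383 had 0.165 CPM in the peripheral retina of dog 18-9, which is 1 count, and none in the other retina libraries.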

How the results depend on the processing

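The count of members called higher in macular RPE/choroid, 150, was 102 without the dog block (2.04% of all genes). With 1 dog left out, it ran from 35 (without dog 18-2) over 93 (18-9) and 96 (18-6) to 144 (18-7). In these fits 0.433%, 1.35%, 1.84% and 9.08% of all genes were called higher. In retina, the 8 members called higher became 5 with DESeq2, 2 without the dog block and 3 to 14 with 1 dog left out. Of all genes, 6.73%, 6.68% and 7.83% to 13.1% were then called higher. The 4 called lower became 1 without the dog block and 1 to 12 with 1 dog left out. Of all genes, 1.82% and 2.76% to 13.0% were called lower in these fits. The tissue counts, 98 and 32, were 97 and 31 without the dog block (37.0% and 38.7% of all genes). With 1 dog left out they were 95 to 99 and 30 to 33 (36.5% to 37.3% and 37.9% to 38.8% of all genes). In the periphery alone the first was 52 (33.1% of all genes). The comparison of retina on with off called 0 members under every alternative run, the fit without the dog block included, while 83 of all genes (0.58%) were called without dog 2. Other settings of the rule kept 117 to 145 of the 150 members, and leaving out 1 dog kept 107 to 134. The 85 members above every peripheral library in all 6 second-set libraries were 80 on TMM library sizes and 92 to 104 without 1 dog. Leaving out libraries raises such a count for any genes. The share of all genes of at least 2 CPM was 12.9% with all 6 and 21.9% without dog 3's retina-off library. It was not computed on TMM library sizes or without 1 dog, so nothing is read from the rise. All 62 repeats of the values of named identifiers kept their direction and side of the threshold. These identifiers were picked as extremes of their contrasts or lay far from the threshold, so little is read from this. In the shallowest library, 3 counts stand for 1.11 CPM, which limits peripheral values of low genes.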
